A study of Mus musculus with 18 samples.

Results

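The genes described here are 10 genes of the primitive endoderm and of the basement membrane that this tissue makes. The endoderm group was Gata4, Gata6, Sox17, Sox7 and Dab2, and the matrix group was Lama1, Lamb1, Lamc1, Col4a1 and Col4a2. All probe sets with one of these symbols as their sole gene in the annotation of the 3 chips were taken, which gave 23 probe sets, 14 for the endoderm group and 9 for the matrix group, of 36701 probe sets tested. They stand for 10 of 15964 genes named on the chips. The probe sets, each a handful of oligonucleotides designed against 1 transcript, were spread over the chips U74Av2 (17), U74Bv2 (1) and U74Cv2 (5).

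The comparison was between wild type (WT) FVB/N embryonic stem (ES) cells grown with the cytokine LIF and FVB/N ES cells of a transgenic line, which overexpress STAT3-MER and were grown with 4-hydroxytamoxifen (OHT) and no LIF. STAT3-MER joins the transcription factor STAT3 to a hormone-binding domain of the estrogen receptor that OHT switches on, and a chicken β-actin promoter drives it. Each group had 3 dishes of one line, each dish was measured on all 3 chips, and genotype and medium changed together, so their parts cannot be told apart. P-values therefore measure the spread between dishes of one line per group. Feeder layers of embryonic fibroblasts were used to derive the lines, and fibroblast RNA could be present in a dish. In such bulk samples, fewer cells of a type and less RNA per cell cannot be told apart.

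Primitive endoderm is the epithelium that forms beside the pluripotent cells of the blastocyst. Gata6 and Gata4 are zinc finger transcription factors that drive this lineage, Sox17 and Sox7 are HMG-box factors that act in it, and Dab2 encodes an endocytic adaptor protein that orders the endoderm into an epithelium. The endoderm lays down a basement membrane of laminin and collagen IV. Lama1, Lamb1 and Lamc1 encode the alpha, beta and gamma chains of one laminin trimer, and Col4a1 and Col4a2 encode the chains of the widespread collagen IV trimer. Laminin and collagen IV are also made by many other cells, fibroblasts among them. The endoderm group was read here as genes of this lineage, and whether other cells add to its signals was not tested.

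Col4a1 and Col4a2 lie head to head on chromosome 8, and windows of 300 bases around their starts (250 before and 50 after) share a stretch of 78 bases. These windows are shown because the collagen genes share this start region and had the same order of arrays, as described further on, and that of Lamb1 on chromosome 12 because it is the laminin gene with a window. The sequences are from RefSeq for GRCm38.p6, whose promoter table held a window for 4 of the 10 genes. They span chr8:11312777-11313076 on the minus strand for Col4a1, chr8:11312555-11312854 on the plus strand for Col4a2 and chr12:31265043-31265342 on the plus strand for Lamb1. Capitals mark the shared stretch in the collagen windows (chr8:11312777-11312854), and the matches of CCAAT and of GGGCGG on either strand in the Lamb1 window.
Col4a1: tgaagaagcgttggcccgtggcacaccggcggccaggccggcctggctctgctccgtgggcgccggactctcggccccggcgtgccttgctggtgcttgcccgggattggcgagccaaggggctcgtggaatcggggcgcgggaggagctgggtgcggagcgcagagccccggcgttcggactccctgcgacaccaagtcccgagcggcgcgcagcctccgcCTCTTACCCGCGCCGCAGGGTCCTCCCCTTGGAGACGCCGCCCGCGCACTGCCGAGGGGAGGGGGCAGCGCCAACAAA
Col4a2: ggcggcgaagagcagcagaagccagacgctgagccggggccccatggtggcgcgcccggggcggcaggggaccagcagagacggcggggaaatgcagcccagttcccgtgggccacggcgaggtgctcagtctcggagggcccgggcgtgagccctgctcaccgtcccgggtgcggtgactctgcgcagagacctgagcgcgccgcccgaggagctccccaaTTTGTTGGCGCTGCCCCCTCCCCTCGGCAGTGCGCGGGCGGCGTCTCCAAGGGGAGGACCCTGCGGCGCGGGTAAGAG
Lamb1: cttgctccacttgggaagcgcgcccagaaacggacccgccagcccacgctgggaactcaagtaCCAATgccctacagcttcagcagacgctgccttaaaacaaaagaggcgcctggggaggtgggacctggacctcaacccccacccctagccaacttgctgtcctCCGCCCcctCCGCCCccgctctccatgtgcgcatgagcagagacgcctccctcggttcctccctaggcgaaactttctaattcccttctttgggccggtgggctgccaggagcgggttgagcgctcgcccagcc

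The starts of the collagen genes lay 21 bases apart. GC made up 74% of the Col4a1 window, 73.7% of the Col4a2 window and 63.7% of the Lamb1 window, against a median of 52.7% over 32851 promoter windows of that length. Each of the 3 windows held 1 match of CCAAT on either strand, a motif found in 37.4% of all windows. GGGCGG, found in 35.7% of all windows, matched once in the Col4a1 window, 3 times in the Col4a2 window and in 2 places in the Lamb1 window, and 1 of these matches lay in the stretch that the collagen genes share. No match in these 3 windows was found for TATAAA, the TATA box, which 13.6% of all windows held on either strand. The same was true of 2 short forms of the site bound by GATA factors, AGATAA in 11.2% of all windows and TGATAA in 9.05%, and of the core of the site bound by SOX factors, ACAAT in 31.0%. The fourth gene with windows was Dab2, on chromosome 15, with 2 starts. The window of its first start held 1 match of AGATAA and 1 of TGATAA, and that of its second start held no match of either. Such counts describe the letters of a window and nothing else.

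The deposited values are signal intensities on a linear scale in arbitrary units. Signals of different probe sets depend on the oligonucleotides as well as on the RNA, so they are given as the place of each probe set in the range of its chip and are not amounts of RNA. On U74Av2, the probe set 93945_at for Esr1, the gene whose hormone-binding domain is part of STAT3-MER, gave 40.3, 19.7 and 9.25 in the WT arrays and 25848, 25567 and 31549 in the STAT3-MER arrays, so each of these 6 arrays matched its labelled group. The other Esr1 probe sets did not separate the groups, and the labels of U74Bv2 and U74Cv2 have no such check. Both groups carried 2 markers of ES cells, Nanog and Pou5f1. Nanog (161072_at) was at 7035 to 14179 in WT arrays and 8404 to 11228 in STAT3-MER arrays. Pou5f1 (103075_at) gave 2157, 5825 and 5054 in WT arrays and 6533, 3562 and 8348 in STAT3-MER arrays. WT replicate 1 was thus the highest array for Nanog and the lowest for Pou5f1. The other Pou5f1 probe sets read 35.2 to 98.9 (161159_r_at) and, on U74Cv2, 872 to 1621 (170285_at).

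The replicate numbers did not all follow each other from chip to chip. Over 60 genes that were bright and variable on both U74Av2 and U74Cv2, the deviations of the U74Av2 array of WT replicate 1 from the gene means had r = 0.469 with WT replicate 2 of U74Cv2, and those of WT replicate 2 had r = 0.469 with WT replicate 1. With U74Bv2 the same crossed pairs gave 0.511 and 0.656 over 45 genes, and WT replicate 3 of U74Av2 was nearest to STAT3-MER replicate 3 of U74Bv2 (r = 0.565) and STAT3-MER replicate 3 of U74Av2 to WT replicate 3 of U74Bv2 (r = 0.545). Some equal numbers were alike as well. STAT3-MER replicates 1 and 2 of U74Av2 had r = 0.362 and 0.585 with the same numbers of U74Cv2. With those of U74Bv2 they had 0.468 and 0.565, and WT replicate 3 had r = 0.554 between U74Av2 and U74Cv2. Matches with the other group could be as high. STAT3-MER replicate 2 of U74Av2 had r = 0.608 with WT replicate 2 of U74Bv2, and STAT3-MER replicate 1 had 0.372 with WT replicate 1 of U74Cv2. WT replicate 1 of U74Av2 had r = 0.59 and 0.483 with STAT3-MER replicate 2 of U74Bv2 and U74Cv2. These values do not settle which arrays came from one dish. Genes are not independent replicates, and these values run across genes. The numbers below therefore name an array of a chip. The 1 member probe set on U74Bv2, for Gata4, is given with and without the arrays of replicate 3.

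No member probe set passed a test for a difference between WT and STAT3-MER cells. With limma (moderated test on log2(signal + 32), Benjamini-Hochberg adjustment over all 36701 probe sets), 0 of 23 member probe sets passed an adjusted p of 0.05 in either direction, and the smallest adjusted p was 0.9996. Over all probe sets, 0.00272% passed as higher, which was Esr1 alone, and 0% as lower. At an unadjusted p of 0.05, again 0 of 23 passed, against 1.88% of all probe sets as higher and 1.57% as lower. The criteria of the study's methods were used there on dChip values and here on the signals as deposited. By these criteria, a ratio of means over 1.5 with a difference over 100 and a p under 0.1 from the methods' t-test, 0 of 23 passed, against 1.1% as higher and 0.872% as lower. The 3 arrays of a group lay wholly apart from those of the other for 1 member probe set, a dim one of Lamc1 that was higher in STAT3-MER cells, against 8.13% of all probe sets (4.5% higher and 3.63% lower).

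**Figure D1:**
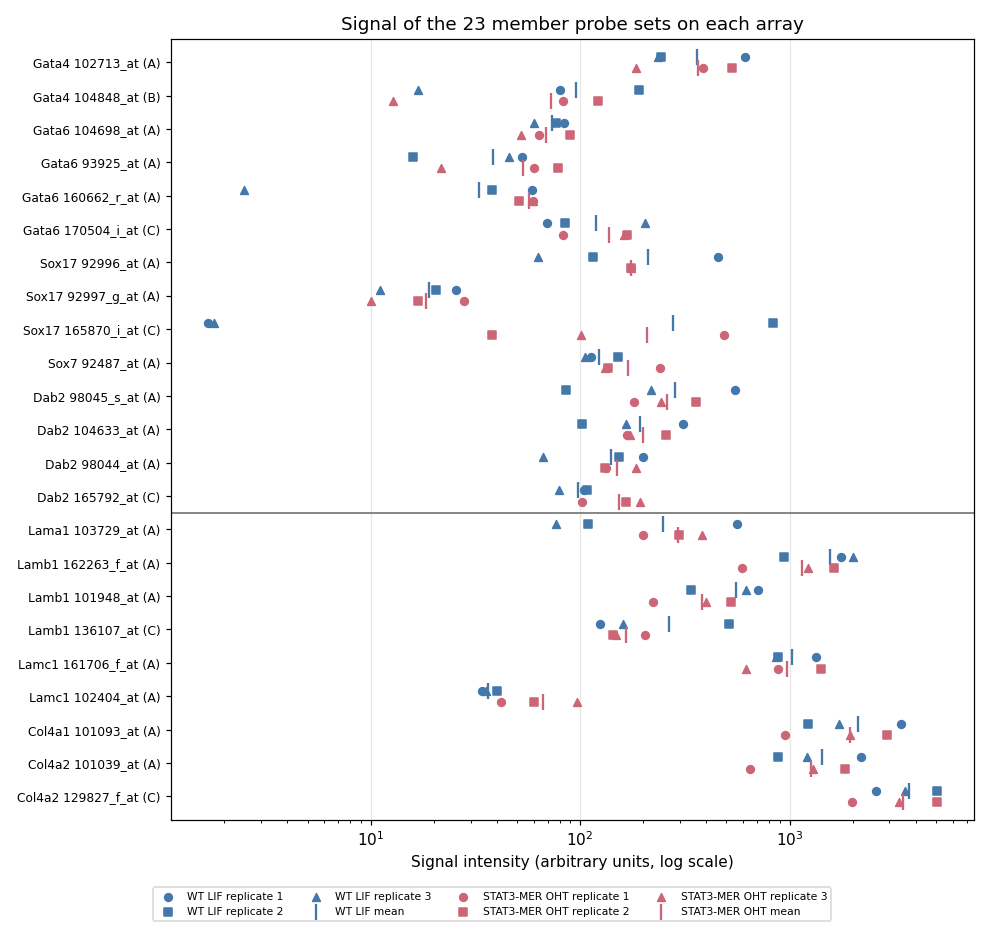
Signal intensity (log axis) of each member probe set on each array, WT LIF in blue and STAT3-MER OHT in red, with a symbol for each replicate number and a vertical bar for the group mean. The letter after a probe set names its chip (A, U74Av2; B, U74Bv2; C, U74Cv2), and the line parts the 14 probe sets of the endoderm group (top) from the 9 of the matrix group. The groups overlap for every probe set except Lamc1 102404_at.

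The 2 groups of genes differed in how bright they were. The endoderm group was dim, with mean signals over the 6 arrays of 18.6 to 365 and 11 of 14 probe sets under 200, and 9 of 14 lay below the middle of their chip. Probe sets of the matrix group had mean signals of 51.3 to 3594, 1 of 9 was under 200, and 2 of 9 lay below the middle. The median probe set ranked at the 42.9th percentile of its chip for the endoderm group and at the 83.9th for the matrix group.

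Gata4 had the highest-ranked probe set of the endoderm group, at the 66.3rd percentile of its chip. Its U74Av2 probe set (102713_at) gave 610, 245 and 234 in the WT arrays and 387, 530 and 184 in the STAT3-MER arrays. WT replicate 1 and STAT3-MER replicate 2 were high, STAT3-MER replicate 3 was lowest, and the groups overlapped. The means were 363 ± 214 and 367 ± 174 (SD, n = 3), a log2 fold change of 0.03 with a 95% interval from -1.01 to 1.08. The U74Bv2 probe set (104848_at) was dimmer and ranged from 16.9 to 190 in WT and from 12.8 to 122 in STAT3-MER arrays, with the array of replicate 3 lowest in both groups. Its log2 fold change was -0.20, and -0.24 without the arrays of replicate 3.

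Gata6, which acts upstream of Gata4 in the lineage, ranked at the 28.3rd to 36.5th percentile of its chips on 4 probe sets. The plain U74Av2 probe set 104698_at gave 84.2, 76.7 and 60.0 in WT arrays and 63.6, 89.7 and 52.2 in STAT3-MER arrays. The arrays of both groups interleaved in this narrow range, and the log2 fold change was -0.08 (95% interval -0.71 to 0.54). The remaining probe sets gave log2 fold changes of 0.27 (93925_at), 0.56 (160662_r_at) and 0.22 (170504_i_at). The value of 160662_r_at turned on WT replicate 3, which read 2.48 where the other arrays read 37.8 to 59.7.

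Sox17 swung widely between dishes of one group. Its main U74Av2 probe set (92996_at) gave 454, 116 and 63.3 in the WT arrays and 175, 174 and 175 in the STAT3-MER arrays. The WT arrays spanned 7.17-fold around STAT3-MER arrays that differed by 1.01-fold, and the log2 fold change was 0.13 (95% interval -1.14 to 1.39). Without WT replicate 1 the log2 fold change was 0.80, past the unadjusted threshold of 0.05 with limma but at an adjusted p of 0.9995.

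The other Sox17 probe sets gave no firmer value. On U74Cv2, 165870_i_at read 1.67, 833 and 1.80 in WT arrays and 489, 38.0 and 101 in STAT3-MER arrays. Its WT replicate 2 was the highest array of all while its WT replicates 1 and 3 were close to the floor of the chip, so that the log2 fold change of 0.76 had an interval from -2.02 to 3.55. The U74Av2 probe set 92997_g_at was at 10.1 to 28.0 in all 6 arrays and did not tell the groups apart. Sox7, which has 1 probe set (92487_at), gave 113, 151 and 106 in WT arrays and 241, 136 and 132 in STAT3-MER arrays. STAT3-MER replicate 1 was the single high array, and the log2 fold change was 0.35 (95% interval -0.37 to 1.07).

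Dab2, the adaptor of the endoderm epithelium, had 4 probe sets. The brightest, 98045_s_at, gave 551, 85.8 and 219 in the WT arrays and 181, 357 and 244 in the STAT3-MER arrays. WT replicate 1 was highest and WT replicate 2 lowest, so the WT arrays enclosed all STAT3-MER arrays, and 104633_at had the same highest and lowest arrays at 310 and 102. The log2 fold changes of the U74Av2 probe sets lay close together at 0.14, 0.13 and 0.16. On U74Cv2, 165792_at read 105, 108 and 79.3 in WT arrays and 103, 167 and 192 in STAT3-MER arrays, a log2 fold change of 0.50 with an interval from -0.52 to 1.52. STAT3-MER replicate 1 of that chip lay within the WT range and the other STAT3-MER arrays above it.

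Among the laminin chains, Lama1 ranked at the 60.7th percentile of its chip. Its probe set (103729_at) gave 559, 109 and 76.9 in the WT arrays and 201, 297 and 384 in the STAT3-MER arrays. WT replicate 1 was the highest of all 6, and the other WT arrays were the lowest of all 6. The means were 248 ± 269 and 294 ± 91.6 (SD, n = 3), and the log2 fold change of 0.60 had a 95% interval from -0.78 to 1.99. Without WT replicate 1 it was 1.36, and Lama1 then passed the unadjusted threshold of 0.05 with limma and the criteria of the methods, at an adjusted p of 0.9995. Without WT replicate 3 it was 0.14, and without WT replicate 2 it was 0.32.

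Lamb1 was lower on average in STAT3-MER cells on all of its 3 probe sets, none past a threshold in the comparison of all arrays. The U74Av2 probe set 101948_at gave 711, 337 and 623 in the WT arrays and 224, 527 and 401 in the STAT3-MER arrays. The STAT3-MER arrays reached lower and the WT arrays higher, with WT replicate 2 inside the STAT3-MER range. The log2 fold change was -0.51 (95% interval -1.36 to 0.34), and that of the brighter 162263_f_at was -0.48. Both moved alike, since their deviations from their own means differed by at most 0.186 log2 units on any array. Without WT replicate 2, 101948_at had a log2 fold change of -0.82 and passed the criteria of the methods, though not limma's unadjusted threshold. Without STAT3-MER replicate 1 the values were -0.20 for 101948_at and -0.076 for 162263_f_at. With the replicate number as a block and WT numbers 1 and 2 exchanged on U74Av2, an alternative chosen after seeing the data, both passed the unadjusted threshold at an adjusted p of 0.93406 with limma. On U74Cv2, 136107_at gave a log2 fold change of -0.38, carried by WT replicate 2 of that chip at 516 where the other 5 arrays lay between 124 and 204.

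Lamc1 had a bright and a dim probe set that disagreed in sign. The bright one (161706_f_at) gave 1334, 881 and 858 in WT arrays and 882, 1409 and 621 in STAT3-MER arrays, a log2 fold change of -0.12 with an interval from -0.85 to 0.60. WT replicate 1 and STAT3-MER replicate 2 were again the high arrays. The dim one (102404_at) gave 34.0, 39.9 and 35.6 in WT arrays and 41.8, 60.0 and 96.8 in STAT3-MER arrays. Here the lowest STAT3-MER array lay just above the highest WT array, the log2 fold change was 0.48 (95% interval -0.14 to 1.10), and the probe set ranked at the 30.9th percentile of its chip.

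The collagen IV probe sets ranked at the 87.8th to 96.8th percentile of their chips. Col4a1 (101093_at) gave 3424, 1220 and 1715 in the WT arrays and 953, 2934 and 1938 in the STAT3-MER arrays. Col4a2 (101039_at) gave 2194, 885 and 1216 in the WT arrays and 646, 1842 and 1293 in the STAT3-MER arrays. The 6 arrays had the same order for both genes, WT replicate 1 highest and STAT3-MER replicate 1 lowest, and their deviations differed by at most 0.108 log2 units. The log2 fold changes were -0.13 (95% interval -1.21 to 0.95) and -0.20 (-1.19 to 0.79). The U74Cv2 probe set of Col4a2 (129827_f_at) gave 2574, 5058 and 3547 in WT arrays and 1995, 5060 and 3331 in STAT3-MER arrays, with a log2 fold change of -0.15. Its lowest array was STAT3-MER replicate 1 too, but its high WT array carried the number 2.

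**Figure D2:**
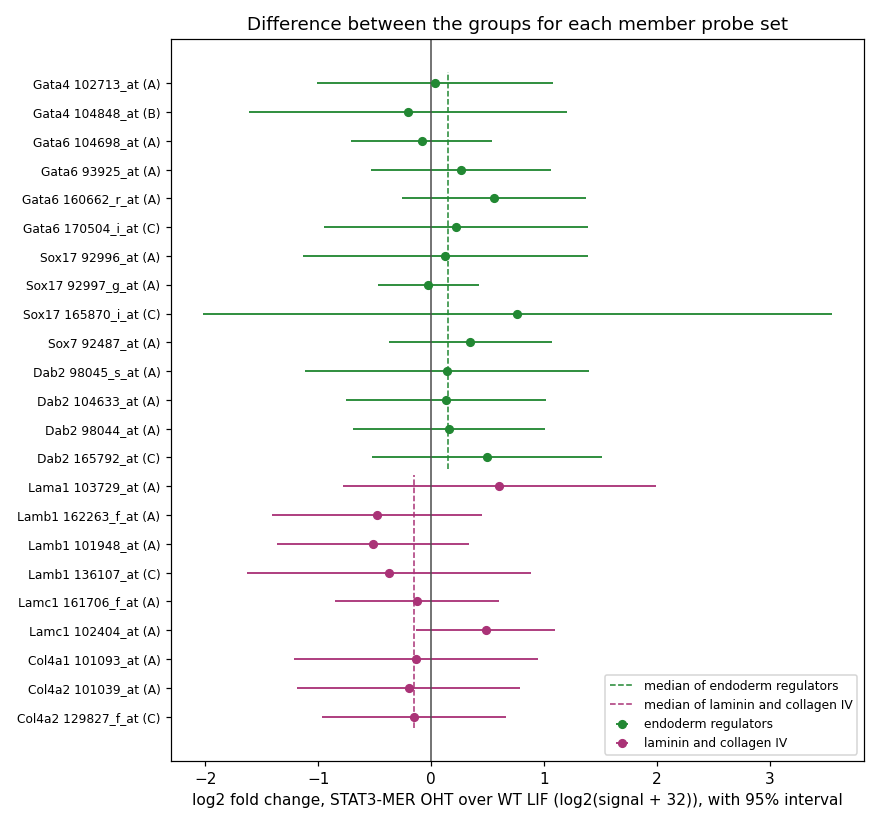
Log2 fold change (STAT3-MER OHT over WT LIF) of each member probe set with its 95% interval from limma, the endoderm group in green and the matrix group in purple. Dashed lines mark the group medians of 0.15 and -0.15, and all 23 intervals include 0.

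Read as groups, the endoderm genes had a median log2 fold change of 0.15, with 11 of 14 probe sets above 0, and the matrix genes had a median of -0.15, with 7 of 9 below 0. By group mean signal, 8 of the 14 endoderm probe sets were higher in STAT3-MER cells, since 3 of the 11 had a lower mean there, and 7 of the 9 matrix probe sets were lower. The median over all 36701 probe sets was 0.0094, with 18804 above 0 and 17897 below. Probe sets of one gene, such as those of Gata6 or Dab2, are not independent, so these are not counts of genes. The endoderm median minus the matrix median was 0.30. On U74Av2 alone, with 10 endoderm and 7 matrix probe sets, it was 0.27, which was less than the spread between arrays of one group in the difference of the 2 class means on that chip (SD 0.404 log2 units). Leaving out WT replicate 1 of every chip turned the matrix median to 0.08. Leaving out STAT3-MER replicate 1 of every chip turned it to 0.19 and the difference to -0.04. All 23 intervals included 0, 14 also included a log2 fold change of 1 and 10 included -1. Changes of that size lay within the error for these members with 3 arrays a group. For each of the 23 probe sets, arrays of one group differed by more than the group means did. This held even for Lamc1 102404_at, whose groups did not overlap. The share over all probe sets was not computed, so it is not read as a trait of the members. The larger group mean was 1.01 to 1.81 times the smaller, while the wider within-group range had a median of 2.94-fold.

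On U74Av2, Col4a1 and Col4a2 followed one array pattern, and Lamb1 shared its low STAT3-MER replicate 1. Relative to its own mean on the log2 scale, Col4a1 stood at 0.88, -0.58 and -0.10 in the WT arrays and at -0.93, 0.66 and 0.07 in the STAT3-MER arrays. Of the 6 matrix probe sets with a mean signal over 200 on this chip, 4 were lowest in STAT3-MER replicate 1, as were 18.8% of all 5549 probe sets this bright, and 4 were highest in WT replicate 1, as were 21.6%. Lamb1 101948_at differed from Col4a1 by up to 0.573 log2 units, about as much as the endoderm gene Dab2 (98045_s_at, 0.617), and Lamb1 162263_f_at was highest in WT replicate 3. Lama1 and Sox17 shared the high WT replicate 1 and not the low STAT3-MER replicate 1. Their deviations were within 0.63 log2 units of each other on every array, whereas Lama1 and Col4a1 differed by up to 1.14.

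Markers of feeder fibroblasts moved between the same arrays. Of 26 such probe sets over 200 on U74Av2, 24 were lowest in STAT3-MER replicate 1. The summed signal of the 26 was 65575, 32606 and 72950 in the WT arrays and 18332, 75695 and 59449 in the STAT3-MER arrays, so it was low in the arrays where collagen IV was low. Type I collagen (Col1a2, 101130_at) gave 9561, 4149 and 9352 in WT arrays and 1978, 12564 and 8411 in STAT3-MER arrays, and the fibroblast proteoglycan gene Lum (93353_at) gave 1376, 711 and 2141 in WT arrays and 445, 1494 and 979 in STAT3-MER arrays. The other Col1a2 probe set (161156_r_at) varied less, at 1183, 1080 and 812 in WT arrays and 865, 1022 and 948 in STAT3-MER arrays. It was lowest in WT replicate 3. Neither Col1a2 nor Lum was near 0 in any array, but this did not hold for every marker of the list. Of 2 Col1a1 probe sets, 94305_at ranged from 137 in STAT3-MER replicate 1 to 3168, and 103709_at from 1226 to 3131. Mmp2 (95663_at) read 6.30 to 17.7 in all arrays. On U74Av2, other endoderm genes, described further on, had their lowest median in STAT3-MER replicate 1 too. Their 5 probe sets over 200 had median deviations of 0.47, -0.37 and 0.01 in WT arrays and -0.58, 0.43 and 0.08 in STAT3-MER arrays. The 6 matrix probe sets this bright had 0.73, -0.44 and -0.07 in WT arrays and -0.90, 0.45 and 0.01 in STAT3-MER arrays. The 26 feeder markers had 0.26, -0.40 and 0.65 in WT arrays and -1.16, 0.47 and 0.31 in STAT3-MER arrays.

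The match with the feeder markers was not the same for all members. The median of the 26 markers stayed within 0.437 log2 units of Lamb1 101948_at on every array, but differed from Col4a1 by up to 0.756, from Sox17 by up to 1.71 and from Lama1 by up to 1.89. The largest gaps lay at WT replicate 3, where the markers were at 0.65 above their mean and Lama1 was at -1.24. The part of fibroblast RNA, or of RNA from endoderm cells, in the signal of the laminin and collagen genes was not tested. Over the whole list, 4 of 39 feeder probe sets had a log2 fold change above 0, the median was -0.26 beside -0.15 for the matrix members, and 1 (Igfbp7, 160527_at) passed an unadjusted p of 0.05 as higher and 0 as lower.

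**Figure D3:**
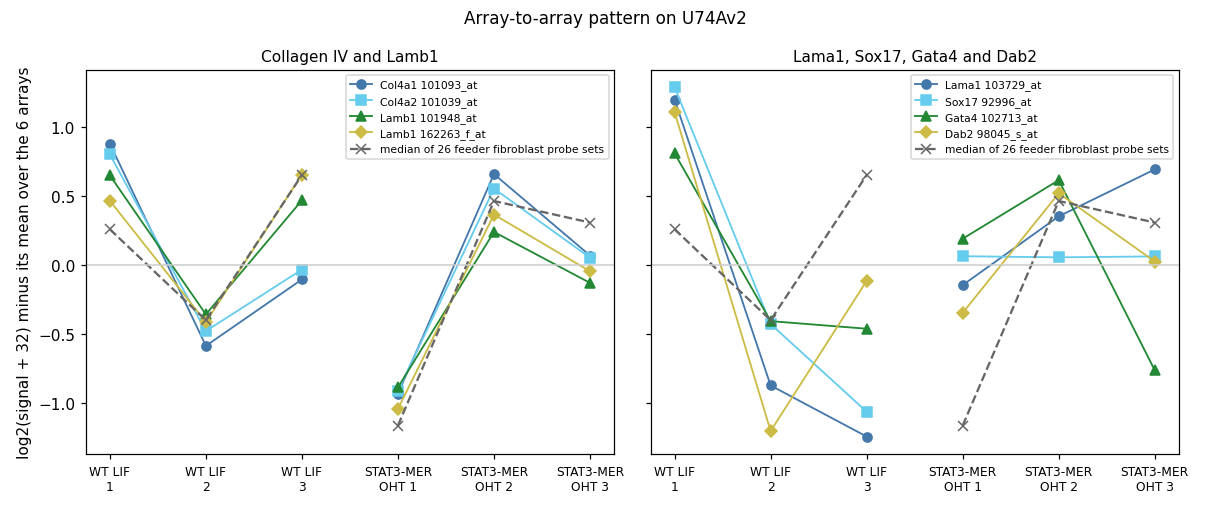
Deviation of log2(signal + 32) from its mean over the 6 U74Av2 arrays, for collagen IV and Lamb1 (left) and for Lama1, Sox17, Gata4 and Dab2 (right), with the median of 26 feeder fibroblast probe sets dashed in both. Lines join the arrays of a group and imply no order. Collagen IV and Lamb1 fall with the fibroblast markers at STAT3-MER replicate 1, and Lama1 and Sox17 part from them at WT replicate 3.

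Probe sets of other genes on U74Av2 were ranked by how closely the shape of their array pattern followed that of the matrix members. Over 5026 single-gene probe sets with a mean signal over 200, the 8 with the highest Pearson correlation to the mean deviation of the matrix probe sets over the 6 arrays were Prkdc (93476_at, r = 0.992), Lrrfip1, Glmp, Cln8, Ets2, Surf1, Hcfc1r1 and Mogs (96139_at, r = 0.984). None of the 8 is in the feeder list or in that of other basement membrane components. This says little, since these lists had only 26 and 15 probe sets this bright on the chip. The correlation ignores the size of the swings, and Lrrfip1 ranged only from 230 to 311. Prkdc, which encodes the catalytic subunit of a DNA repair kinase, gave 572, 253 and 296 in WT arrays and 220, 485 and 399 in STAT3-MER arrays, and the 8 were picked as the extreme of a long list over few arrays.

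The array patterns of the same gene on different chips crossed in the WT group. Col4a2 was high in WT replicate 1 on U74Av2 and in WT replicate 2 on U74Cv2, and its deviations on both chips differed by up to 1.2 log2 units with the labelled numbers and by up to 0.238 with WT numbers 1 and 2 exchanged. For Lamb1 (101948_at and 136107_at) these values were 1.65 and 0.965. Sox17 was likewise highest in WT replicate 1 on U74Av2 and in WT replicate 2 on U74Cv2. In these probe sets the highest WT array thus had a different number on each chip. The brighter U74Av2 probe set of Lamb1, 162263_f_at, was instead highest in WT replicate 3. No group mean or fold change depends on WT numbers 1 and 2.

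**Figure D4:**
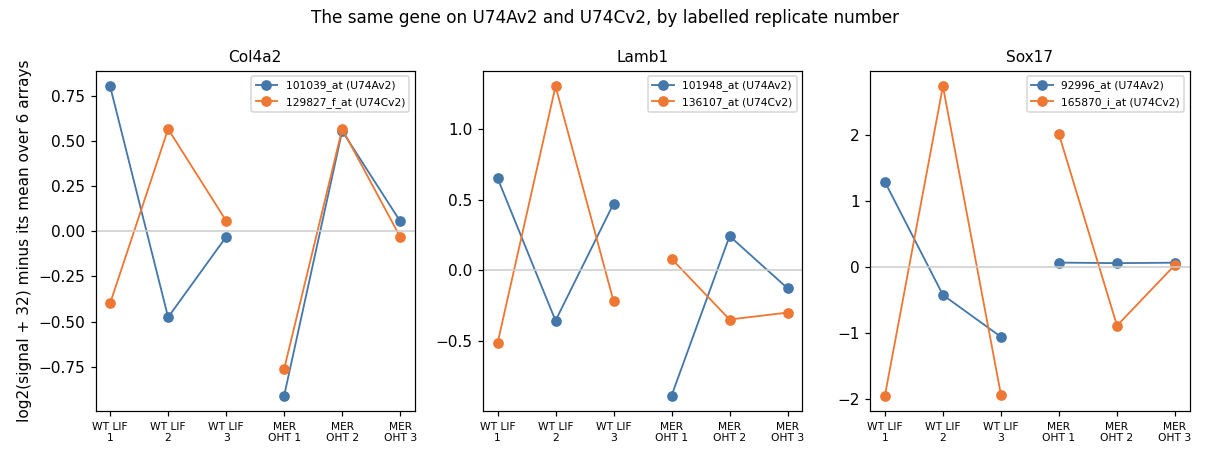
Deviation of log2(signal + 32) from its mean over 6 arrays for Col4a2, Lamb1 and Sox17 on U74Av2 (blue) and U74Cv2 (orange), by labelled replicate number, each panel with its own vertical scale. The high WT array is replicate 1 on U74Av2 and replicate 2 on U74Cv2 for each gene.

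Other genes of the endoderm and of the matrix were read against the overall shares of 1.88% higher and 1.57% lower. Of 37 probe sets of 20 other endoderm genes, 1 passed an unadjusted p of 0.05 as higher and 0 as lower, with a median log2 fold change of -0.01. The one was Apoe (169907_r_at), a lipoprotein gene of the visceral endoderm, at 368, 293 and 295 in WT arrays and 712, 971 and 455 in STAT3-MER arrays, a log2 fold change of 1.03. The groups did not overlap there, but the far brighter Apoe probe set 95356_at had a log2 fold change of 0.11. The dim 161321_i_at, also for Apoe, had one of -0.22, with group means of 27.5 in WT and 17.6 in STAT3-MER arrays. Foxa2 (93950_at), another endoderm transcription factor, read 120 in WT replicate 1 and 23.7 to 38.9 in the other arrays.

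The partners of the matrix members were read in the same way. Of 44 probe sets of 21 other basement membrane components, 1 passed as higher and 0 as lower, with a median of 0.05. It was Lama3 (97790_s_at), an alpha chain of epithelial laminins, at 283, 238 and 236 in WT arrays and 346, 374 and 493 in STAT3-MER arrays, groups that did not overlap and a log2 fold change of 0.61. Of 29 probe sets of 16 matrix receptors, 0 passed in either direction. Of 30 probe sets of 12 genes that process collagen, 2 passed as higher and 1 as lower, and Plod1, a lysyl hydroxylase of collagen, was among both, with Plod3 of the same enzyme family as the other higher one. Plod1 138520_at had a log2 fold change of -1.31 and Plod1 137320_g_at one of 1.43, both on U74Cv2, so the gene has no settled direction. The criteria of the methods were passed by 3 probe sets of these lists, Lama3 97790_s_at and Plod3 167334_f_at as higher and Plod1 138520_at as lower. None of these passed an adjusted p of 0.05 with limma, where the smallest adjusted p of each list was 0.9996.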

How the data were processed

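RNA of 3 dishes per group was amplified in 2 rounds and hybridized to U74Av2, U74Bv2 and U74Cv2, 18 arrays in all. The tables deposited by the authors hold linear signal intensities, 1 value for each probe set on an array, with no detection calls. MAS5 is the tool in the submitters' processing notes. The authors had scaled the arrays, whose trimmed means lay at 500.1 to 500.3. Groups came from the labels. The one U74Av2 array of STAT3-MER cells with no number was called replicate 2, and an array labelled with both chips B and C was taken as U74Cv2 by its probe sets. Columns with no sample numbered 0.

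Here, arrays of a chip were scaled to a common trimmed mean (2% off each side) and log2(signal + 32) was tested with limma 3.58.1 in R 4.3.3 (lmFit, eBayes with trend, 1 fit per chip, two-sided, no filter), after 198 control probe sets were left out. An exact permutation test with 3 against 3 cannot go below 0.1. The study's methods applied their criteria to dChip model values, which were not used here, and do not give the form of the t-test. Here it was run on the deposited signals with unequal variances allowed. Gene names came from the chip annotation, updated through RefSeq (GRCm38.p6). Of the probe sets tested, 29131 had 1 gene, 724 several and 6846 none. A suffix such as _f_at, _s_at, _r_at, _i_at or _g_at marks possible cross-hybridization or an unusual probe design, and 8 member probe sets carried one.

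The members and lists were chosen with earlier results of these data known. The text names every member probe set, and Esr1, Nanog and Pou5f1 as checks. It also names up to 4 probe sets of each other list with the smallest p. Col1a1, Col1a2 and Lum of the feeder list and the 8 probe sets most like the matrix members are named as well. The other Apoe probe sets were named after their values were seen. Tables were joined with pandas 2.3.3 and figures drawn with matplotlib 3.10.9. The closing section gives the alternatives.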

Additional observations from a re-analysis of the deposited data

How the results depend on the processing

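Quantile or median scaling, the signals as deposited, pseudocounts of 8 and 100, a mean signal over 100, a fit with no trend, adjustment within each chip, equal variances or a ratio over 2 for the methods' criteria, probe sets without a marked suffix and the brightest probe set per gene left every member count at 0 and moved no median by as much as the spread between U74Av2 arrays of one group (SD 0.378 for the endoderm class mean, 0.519 for the matrix and 0.404 for their difference). Of 224 member fold changes with all arrays kept, 0 changed sign, but only scaling and pseudocounts could move them.

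Leaving out 1 replicate number, on all 3 chips at once, mattered more, and the ranges below include the case, added after seeing the data, in which WT numbers 1 and 2 were exchanged on U74Av2. The count past an adjusted p of 0.05 was 0 throughout. The count past an unadjusted p of 0.05 ranged from 0 to 4 as higher and stayed at 0 as lower, and that past the methods' criteria from 0 to 1 in each direction. The median ranged from -0.02 to 0.44 for the endoderm group and from -0.47 to 0.19 for the matrix group, and their difference from -0.04 to 0.54. Of the 23 member probe sets, 15 changed sign when an array was left out, and 8 did not. The log2 fold changes then ranged as follows.
The range was Gata4 102713_at from -0.27 to 0.45, Gata4 104848_at from -0.77 to 0.32, Gata6 104698_at from -0.23 to 0.037 and Gata6 170504_i_at from -0.016 to 0.59.
The range was Sox17 92996_at from -0.37 to 0.80, Sox17 92997_g_at from -0.16 to 0.097, Sox17 165870_i_at from -0.047 to 2.33 and Dab2 98045_s_at from -0.43 to 0.72.
The range was Dab2 104633_at from -0.19 to 0.49, Dab2 98044_at from -0.20 to 0.42, Lamb1 136107_at from -0.73 to 0.18 and Lamc1 161706_f_at from -0.42 to 0.15.
The range was Lama1 103729_at from 0.14 to 1.36, Lamb1 162263_f_at from -0.80 to -0.076, Lamb1 101948_at from -0.82 to -0.20 and Lamc1 102404_at from 0.27 to 0.67.
The range was Gata6 93925_at from 0.012 to 0.57, Gata6 160662_r_at from 0.16 to 0.85, Sox7 92487_at from 0.11 to 0.48 and Dab2 165792_at from 0.35 to 0.72.
The range was Col4a1 101093_at from -0.49 to 0.30, Col4a2 101039_at from -0.53 to 0.21 and Col4a2 129827_f_at from -0.47 to 0.19.

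Samples with the same replicate number did not deviate together on U74Av2 (r = -0.296, -0.335 and 0.287 for numbers 1, 2 and 3), whereas they did so weakly on U74Bv2 (0.18, 0.211 and 0.13) and U74Cv2 (0.107, 0.132 and 0.0703), so the numbers were not taken to pair the samples. On U74Av2, WT replicate 1 had r = 0.459 with STAT3-MER replicate 2 and WT replicate 2 had r = 0.413 with STAT3-MER replicate 1, so all 3 pairs of that chip were positive once WT numbers 1 and 2 were exchanged. With the replicate number as a block, 0 of 23 members passed an adjusted or an unadjusted p of 0.05. With the block and WT numbers 1 and 2 exchanged on U74Av2, an alternative added after seeing the data, 2 member probe sets passed an unadjusted p of 0.05 as lower, both of Lamb1 (log2 fold changes of -0.51 and -0.48, adjusted p = 0.93406 with limma). The arrays carry no counts, and their number limits the precision. The 95% intervals of the member fold changes were 0.895 to 5.58 log2 units wide.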
